A study of Mus musculus with 108 samples.

Results

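Crystallin genes were followed in 2 tissues of the glaucomatous mouse eye, the retina and the optic nerve head (ONH). The family was taken as 9 genes, Cryaa, Cryab, Cryba1, Cryba2, Cryba4, Crybb1, Crybb2, Crybb3 and Crygs, of 18194 genes with a probe set of their own on the array. Each gene was read from probe sets annotated to it alone, 11 in all. Cryab has 3, and its probe set of the highest mean in the tissue was used, with the others as a check; each of the other genes has 1. Values are log2 signals on Affymetrix Mouse Genome 430 v2.0 arrays. A level can be compared between arrays of a tissue for the same probe set, but not between genes.

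DBA/2J mice develop an inherited pigmentary glaucoma with age. The D2-Gpnmb+ controls carry a working Gpnmb gene on that background and do not. All mice were labelled female and were 10.5 months old, except DBA/2J preglaucoma mice of 4.5 months, which were measured in the ONH alone. Eyes of older DBA/2J mice were graded as no or early, moderate or severe glaucoma, with the first of these split into sets 1 and 2. The ONH arrays came from 10 preglaucoma eyes, 10 eyes of no or early set 1 and 11 of set 2, 9 moderate, 10 severe and 10 control eyes. The retina arrays came from 10 eyes of each no or early set, 8 moderate, 10 severe and 10 control eyes. For 14 no or early and 6 control ONH arrays the labels add that no irradiation was given. Cornea and lens were taken off before either tissue was removed, and the ONH punch holds a little central retina, choroid and sclera, per the labels' protocols. In such bulk tissue, fewer cells of a type and less RNA per cell cannot be told apart.

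Crystallins were first known as the abundant proteins that make the lens clear. The alpha crystallins Cryaa and Cryab are small heat shock proteins, chaperones that hold unfolded proteins in solution, and Cryab is also made in astrocytes, Müller glia and many other tissues outside the eye. The beta crystallins, acidic (Cryba1, Cryba2, Cryba4) or basic (Crybb1, Crybb2, Crybb3), and the gamma crystallin Crygs are structural proteins of lens fibres built of Greek key folds. Several of them are also reported in the retina, where their amounts have been described to differ widely between animals.

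Lens expression of crystallin genes is known to be driven through promoters that often carry a TATA box and a half-site for large Maf factors (TGCTGA), so the promoters are shown with these letters marked. RefSeq's table for GRCm38.p6 held a promoter, 250 bases before to 50 after the start, for 8 of the 9 genes, with Cryab not among them. TGCTGA on either strand lay in 7 of the 8, against 19.5% of all 32851 promoters of the table. TATAAA lay in 4 of the 8, against 13.6% of all. The heat shock core GAANNTTC was in 0 of the 8 windows and in 7.86% of all. The searches covered both strands, these motifs did not overlap each other in the windows printed, and a match is a string of letters, not a shown binding site. The promoters of Cryba1 and Crygs, tested in the ONH, of Crybb1, tested in the retina, and of Cryaa follow 5′ to 3′ on the gene's own strand, with TATAAA and TGCTGA, or its reverse complement TCAGCA, in capitals.
Cryba1, chr11:77725244-77725543, minus strand: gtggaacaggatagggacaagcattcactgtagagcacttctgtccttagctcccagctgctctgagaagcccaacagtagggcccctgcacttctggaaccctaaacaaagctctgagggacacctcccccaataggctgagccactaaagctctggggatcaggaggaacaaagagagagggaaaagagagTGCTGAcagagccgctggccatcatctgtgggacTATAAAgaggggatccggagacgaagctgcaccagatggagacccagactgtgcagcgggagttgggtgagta
Crygs, chr16:22811361-22811660, minus strand: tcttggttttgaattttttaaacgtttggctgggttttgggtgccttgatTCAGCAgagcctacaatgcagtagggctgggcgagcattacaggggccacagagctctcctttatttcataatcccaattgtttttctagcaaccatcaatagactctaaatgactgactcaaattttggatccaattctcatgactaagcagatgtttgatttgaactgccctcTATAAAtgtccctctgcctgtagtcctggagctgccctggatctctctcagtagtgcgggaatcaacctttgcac
Crybb1, chr5:112255570-112255869, plus strand: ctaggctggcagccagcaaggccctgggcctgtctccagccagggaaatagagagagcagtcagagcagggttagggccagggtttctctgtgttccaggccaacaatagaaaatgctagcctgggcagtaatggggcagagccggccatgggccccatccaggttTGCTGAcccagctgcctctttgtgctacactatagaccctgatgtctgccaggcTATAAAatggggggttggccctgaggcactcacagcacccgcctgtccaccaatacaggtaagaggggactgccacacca
Cryaa, chr17:31677681-31677980, plus strand: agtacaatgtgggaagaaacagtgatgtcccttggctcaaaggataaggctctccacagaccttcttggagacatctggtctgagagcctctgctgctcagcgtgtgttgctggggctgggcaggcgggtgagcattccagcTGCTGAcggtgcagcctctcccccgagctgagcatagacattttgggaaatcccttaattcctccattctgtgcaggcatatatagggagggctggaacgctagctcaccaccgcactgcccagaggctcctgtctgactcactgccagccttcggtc
In Cryba1, Crygs and Crybb1 the TATAAA began 23, 25 and 30 bases before the start. In Cryba2, the remaining gene with the string, it began only 3 bases before the start. Cryaa held no TATAAA in this window. The Maf half-site began 57 bases before the start in Cryba1, 84 in Crybb1, 108 in Cryaa and 200 in Crygs. Crybb1 and Cryba4 are neighbours on chromosome 5 that point away from each other, with starts 3302 bases apart. Crybb2 and Crybb3 lie on the same chromosome and the same strand, with starts 11467 bases apart.

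Cryab was the member with a clear signal throughout. It stood above a log2 signal of 5 on all 60 ONH arrays (10.79 to 11.57) and all 48 retina arrays (9.89 to 11.45). A gene was tested where it reached 5 on at least 8 arrays of the tissue. In the ONH this let in 4 members, Cryab, Cryba1 (13 arrays), Cryba2 (15) and Crygs (13). In the retina it let in 2, Cryab and Crybb1 (12 arrays). The other members were below the filter and are given by value. Gpnmb, the gene mutated in DBA/2J, separated the strains as labelled. Its signal was 5.75 to 7.92 in 50 DBA/2J ONH arrays against 8.35 to 9.80 in 10 controls, and 4.89 to 6.47 in 38 DBA/2J retinas against 7.29 to 7.88 in 10 controls. In 1 severe mouse, both eyes and both tissues had a low Xist signal (2.89 to 6.64, against at least 10.79 on every other array), and each result was also run without it. All controls fall in 1 range of mouse numbers, which holds 9 of the 40 ONH arrays and 9 of the 38 retina arrays of 10.5-month DBA/2J mice, so mouse number and strain are partly confounded. No preglaucoma array is in that range. Mouse number, strain and age therefore cannot be told apart in preglaucoma against control.

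Cryab, the small heat shock protein, rose in moderate retinas. Its signal there was 10.12 at the lowest, 10.34 at the median and 11.45 at the highest (n = 8), against 9.89, 9.97 and 10.32 in controls (n = 10). Of the 8 moderate retinas, 6 lay above every control. The difference was 0.60 ± 0.10 on the log2 scale (SE), a 1.52-fold change, with an adjusted p of 3.51e-05 by limma with Benjamini-Hochberg adjustment. In this comparison 15.5% of all 11322 genes tested were called in either direction, and 1 of the 2 tested members, Cryab, was called. Crybb1, the other tested member, had a difference of 0.05 ± 0.09 and an adjusted p of 0.769.

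**Figure D1:**
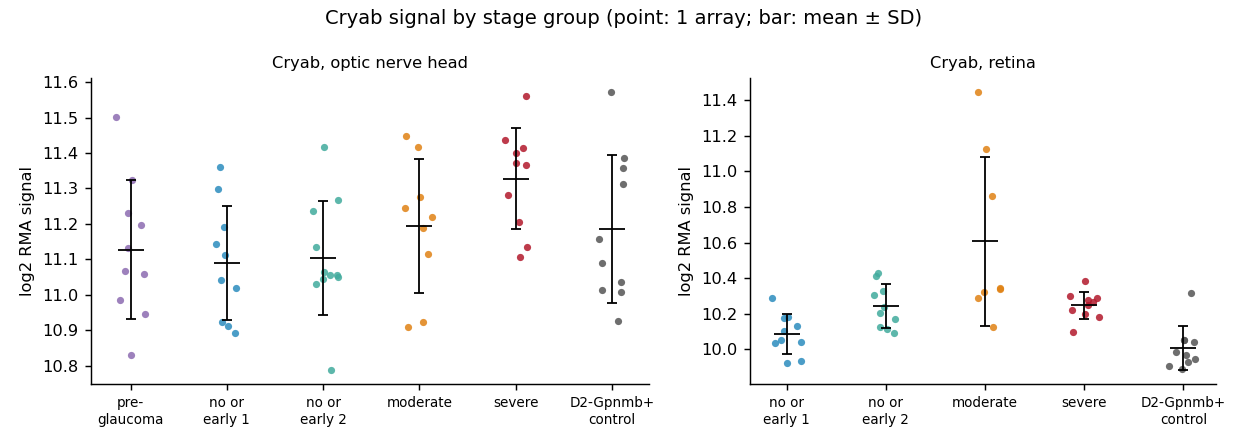
Cryab log2 signal by stage group in the optic nerve head (left panel) and the retina (right panel), on separate axes. Each point is 1 array, and the bar gives the mean ± SD. In the retina 3 moderate eyes stand between 10.86 and 11.45, above every other retina, and in the optic nerve head the groups overlap.

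The moderate group was uneven. Its 3 highest retinas, replicates 8, 9 and 2, had Cryab signals of 10.86, 11.12 and 11.45. No no or early retina exceeded 10.43 and no severe retina exceeded 10.38. The other 5 moderate retinas lay between 10.12 and 10.34, within the range of the no or early and severe retinas. Between group means, moderate retinas were 0.44 ± 0.09 above no or early retinas (adjusted p = 0.000414 by limma), in a comparison that called 15.2% of genes. Severe retinas were 0.36 ± 0.10 below moderate ones (log2 difference -0.36, adjusted p = 0.00418 by limma), in a comparison that called 38.3%. Without the mouse of moderate replicate 2, whose other eye is severe replicate 1, the severe minus moderate difference was -0.24 (adjusted p = 0.0280).

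Of 8 glial, stress and related genes, chosen after the Cryab values were seen, 5 were higher in all 3 of those retinas than in the other 5 moderate ones, and 3 were not. The share of all tested genes that part these retinas in the same way was not computed. The count is therefore a description and no result about these genes. Crym, mu-crystallin, an enzyme and thyroid hormone binding protein unrelated to the lens family, stood at 12.03, 10.32 and 10.46 in replicates 2, 9 and 8, against 8.76 to 9.69 in the other 5. Gfap, the intermediate filament of reactive glia, stood at 11.25, 10.09 and 9.17, against 7.41 to 8.93. Clu, the secreted chaperone clusterin, stood at 12.31, 11.92 and 12.11, against 11.29 to 11.65. Bag3, a co-chaperone that works with small heat shock proteins, stood at 6.70, 5.98 and 6.02, against 4.99 to 5.83. Sox2, a transcription factor of Müller glia, was the last of the 5, at 9.90, 9.74 and 9.53, against 9.15 to 9.28. The 3 that overlapped were a secreted peptide, an iron-carrier binding protein and a small heat shock protein. Edn2, endothelin 2, stood at 9.92, 8.94 and 7.64 in replicates 2, 9 and 8, against 6.28 to 8.04 in the other 5. Lcn2, lipocalin 2, stood at 8.33, 9.02 and 6.48, against 6.36 to 7.92. Hspb8 stood at 7.57, 8.35 and 7.73, against 7.32 to 8.02.

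In severe retinas Cryab lay between 10.10 and 10.38 with a median of 10.26 (n = 10), against 9.89, 10.32 and 9.97 in controls. All 10 severe retinas were above 9 of the 10 controls, and the remaining control, replicate 5, stood at 10.32. The difference was 0.24 ± 0.10 with an adjusted p of 0.0535 (limma), above the threshold of 0.05, in a comparison that called 32% of genes. With array weights the adjusted p was 0.00133 and with only the groups compared 0.000368. With a second Cryab probe set the difference was 0.19 ± 0.12 and did not pass (adjusted p = 0.218 by limma). Severe and no or early retinas differed by 0.08 ± 0.08 (adjusted p = 0.442), in a comparison that called 44.1%. In no or early retinas Cryab averaged 10.08 ± 0.11 in set 1 and 10.24 ± 0.12 in set 2, against 10.01 ± 0.12 in controls (SD, n = 10 each). The mean of both sets was 0.16 ± 0.08 above controls (SE, adjusted p = 0.745 by limma). That comparison called 0.0442% of genes, and 0 of the 2 tested members.

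The second Cryab probe set moved the same way in the retina, from 7.82 to 10.03 over all retinas. Its difference was 0.69 ± 0.12 in moderate against control retinas (adjusted p = 0.000107 by limma) and 0.61 ± 0.11 in moderate against no or early retinas. The remaining probe set stayed between 2.95 and 3.53 on every retina array and was not tested. Within the controls' range of mouse numbers, with 2 moderate, 3 severe, 4 no or early and 10 control retinas, the moderate minus control difference of Cryab was 0.23 (adjusted p = 0.266) and the severe minus moderate difference -0.02 (adjusted p = 0.955). None of the 3 highest moderate retinas is in that range.

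Reactive glia genes also differed by stage in the retina. Of 13 on the array, 11 were tested in the retina; all 11 rose in moderate retinas against controls, with a median difference of 1.79, against -0.01 over all genes. The strongest were Gfap (3.41 ± 0.29), Edn2 (2.99 ± 0.28), Lcn2 (2.75 ± 0.36) and Serpina3n (2.30 ± 0.23). In severe retinas 10 of the 11 rose against controls, with a median of 0.93. Against moderate retinas 8 of the 11 fell in severe ones and 1 rose. Of all 11322 genes tested, 802 rose in moderate and 1561 in severe retinas against controls. Between severe and moderate retinas, 2430 fell and 1910 rose in severe ones. The per-array mean of the 13 genes ran from 6.77 to 9.10 in moderate, 6.84 to 7.21 in severe and 5.89 to 6.25 in control retinas, and its part in the Cryab result was not tested.

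Of Müller glia markers, 10 of 10 were tested, and 4 rose in moderate retinas against controls, Clu, Apoe, Slc1a3 and Aqp4 (0.74 ± 0.08, 0.42 ± 0.13, 0.22 ± 0.05 and 0.20 ± 0.05). Their median difference was 0.15. In severe retinas 7 of the 10 rose. Of retinal ganglion cell markers, 12 were tested in the retina. Against controls, 7 fell and 1 rose in moderate retinas, and 11 fell in severe ones. Over all 11322 genes tested, 802 rose and 951 fell in moderate retinas, and 1561 rose and 2066 fell in severe ones.

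In the ONH Cryab moved little. Its lowest, median and highest signals were 11.11, 11.37 and 11.56 in severe eyes (n = 10), against 10.93, 11.12 and 11.57 in controls (n = 10). The groups overlapped, and the difference of 0.14 ± 0.08 did not pass (adjusted p = 0.206 by limma). Severe eyes exceeded no or early eyes by 0.23 ± 0.07, a 1.18-fold change with an adjusted p of 0.0160 (limma). No or early ONHs ran from 10.89 to 11.36 with a median of 11.08 in set 1, and from 10.79 to 11.42 with a median of 11.06 in set 2. The groups overlapped, and 2 of the 10 severe ONHs were above every no or early ONH. Severe against no or early called 13.2% of all 12100 genes tested and 1 of the 4 tested members. With the second Cryab probe set the difference was 0.27 ± 0.11 and did not pass (adjusted p = 0.101), and within the controls' range of mouse numbers it was -0.02. In this comparison 6 of 13 reactive glia genes rose, and 4 of 10 Müller glia markers and 10 of 12 ganglion cell markers fell. Over all 12100 genes, 405 rose and 1196 fell.

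Moderate ONHs (10.91 to 11.45, median 11.22, n = 9) differed from controls by 0.01 ± 0.08 in Cryab (adjusted p = 0.968). The comparison between tissues bears on this. In 48 eyes with both tissues, the moderate minus control difference in Cryab was smaller in the ONH than in the retina by 0.56 ± 0.14 (ONH minus retina, log2 difference -0.56, adjusted p = 0.00651 by limma). It called 7.43% of 10789 genes tested in both tissues, and Cryab was the one member tested there. The same difference was -0.26 ± 0.11 in no or early eyes (adjusted p = 0.371, 0.538% of genes called) and -0.09 ± 0.13 in severe eyes (adjusted p = 0.690, 19.5% called). It lost the call with only the groups compared (-0.55, adjusted p = 0.0556), with the mouse number as a factor (-0.40, adjusted p = 0.130) and within the controls' range of mouse numbers (-0.20, adjusted p = 0.741).

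Crybb1, a basic beta crystallin of lens fibres, was lower in severe retinas, but near the bottom of the scale. It was tested only through groups where it is higher, as set out below. Its signal there ran from 4.24 to 4.76 with a median of 4.58 (n = 10). Against this stood 4.48 to 5.16 with a median of 4.87 in moderate retinas, and 4.39 to 5.35 with a median of 4.86 in controls. In no or early retinas the medians were 5.06 in set 1 and 4.84 in set 2. The groups overlapped, but all 10 severe retinas were below the median of the other 38, 4.91.

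The fitted difference was -0.29 ± 0.09 against controls (adjusted p = 0.00967), -0.40 ± 0.08 against no or early retinas (adjusted p = 2.77e-05) and -0.34 ± 0.09 against moderate retinas (adjusted p = 0.00343), all by limma. The share of genes called in those comparisons is the 32%, 44.1% and 38.3% given above. No severe value reached a log2 signal of 5, the level the filter uses, so these differences lie near the bottom of the scale. Of the 12 retinas that let Crybb1 through the filter, 8 were no or early (7 of them in set 1), 3 moderate, 1 control and 0 severe, so it was tested only through groups where it is higher, and without the no or early retinas it would have missed the filter. With no filter the adjusted p was 0.0121 against controls, 3.68e-05 against no or early and 0.00457 against moderate retinas. Within the controls' range of mouse numbers the differences were -0.43, -0.52 and -0.71 and did not pass (adjusted p = 0.0726, 0.0707 and 0.0710). Every member below the filter also had its lowest group mean in severe retinas. Cryba4 and Crybb3 averaged 2.88 ± 0.18 and 3.53 ± 0.15 there (SD, n = 10). Their moderate means were 3.27 ± 0.20 and 3.81 ± 0.19 (n = 8). Their control means were 3.02 ± 0.23 and 3.68 ± 0.17 (n = 10). In severe retinas Cryaa, Cryba1, Cryba2, Crybb2 and Crygs averaged 3.38, 3.21, 4.13, 3.37 and 2.98. In controls these averaged 3.59, 3.88, 4.26, 3.77 and 3.30. Of other low lists, skeletal muscle markers had a lower median per-array mean in severe than control retinas (3.57 against 3.70). Cornea markers had a higher one (3.48 against 3.37), as had lens fibre markers (3.46 against 3.39). A shared shift of low signals was not tested.

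**Figure D2:**
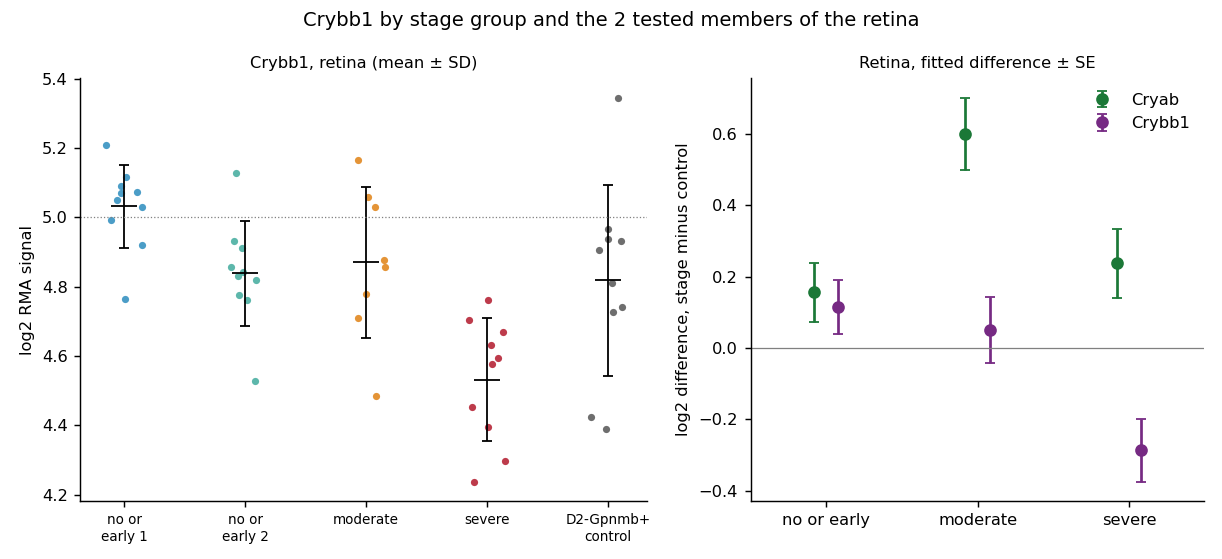
Left, Crybb1 log2 signal by stage group in the retina; each point is 1 array, the bar is the mean ± SD and the dotted line marks log2 5. Right, the fitted log2 difference of each stage minus control, ± SE, for Cryab and Crybb1. Crybb1 is lower in severe retinas, where no array reaches the dotted line, and it passed the filter only through other groups. Cryab is higher by 0.60 in moderate retinas.

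Cryba1, the acidic beta crystallin that gives the A3 and A1 proteins, varied more from eye to eye than between stages. In preglaucoma ONHs it ran from 2.83 to 7.49 with a median of 5.28 (n = 10), against 2.97 to 5.38 with a median of 3.51 in controls. The difference of 1.12 ± 0.53 did not pass (adjusted p = 0.209 by limma), in a comparison that called 6.08% of genes and 0 of 4 members. These 2 groups differ in age, strain and mouse number at once. No or early ONHs were 1.11 ± 0.45 below preglaucoma ones (log2 difference -1.11, adjusted p = 0.0865), in a comparison that called 14.6% of genes and 0 of 4 members. With array weights the difference was -1.05 and passed (adjusted p = 0.0333), and with the replicate block it was -1.24 and passed (adjusted p = 0.0413). Mean Cryba1 was 3.54 ± 0.56 in no or early 1, 4.28 ± 1.42 in no or early 2, 3.53 ± 0.71 in moderate and 3.83 ± 1.30 in severe ONHs, against 3.89 ± 0.92 in controls (SD).

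Cryba2, a further acidic beta crystallin, averaged 4.95 in no or early ONHs, 0.30 ± 0.11 above preglaucoma ones at 4.65 (adjusted p = 0.0598 by limma). Of the 15 arrays that let Cryba2 through the filter, 9 were no or early (8 of them in set 2). Without the no or early ONHs it would have missed the filter, so it was tested only through the group where it is higher. Crygs, the gamma crystallin of the adult lens cortex, averaged 4.59 ± 0.39 in moderate and 4.55 ± 0.66 in severe ONHs, against 4.20 ± 0.48 in controls (SD). Its differences of 0.37 ± 0.28 and 0.35 ± 0.28 did not pass (adjusted p = 0.384 and 0.383). Of the 13 arrays that let Crygs through the filter, 6 were no or early (5 of them in set 2). Without the no or early ONHs Crygs would also have missed the filter. Against controls, 0 of 4 tested members were called in no or early, moderate or severe ONHs, where 2.86%, 21.6% and 24.2% of genes were. Moderate against no or early ONHs called 7.47% of genes and severe against moderate 3.74%, with 0 of 4 members in each. Unadjusted p was under 0.05 for Cryba1 against controls in preglaucoma ONHs (0.0383) and for no other tested member against controls in the ONH.

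The sets 1 and 2 of no or early eyes, a division that the labels leave unexplained, did not differ in any called gene. Set 2 against set 1 called 0% of genes in the ONH, with 249 of 12100 at an unadjusted p under 0.05, and 0% in the retina, with 725 of 11322.

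The lens members were high in partly the same eyes. In the ONH, Cryba1 reached 5 on 13 arrays, Crygs on 13 and Crybb2 on 7. All 7 arrays of Crybb2 were among those of Cryba1, and 6 were among those of Crygs. Cryba1 and Crygs shared 7 arrays, and each reached 5 without the other on 6. The 3 genes were at 5 together on 6 arrays, of which 4 follow. Cryba1, Crybb2 and Crygs were at 7.12, 5.89 and 5.53 in the ONH of no or early 2 replicate 7, and at 6.09, 6.89 and 6.57 in that of replicate 8. They were at 7.49, 6.17 and 6.15 in preglaucoma replicate 10, and at 6.70, 5.74 and 5.72 in severe replicate 3. The group medians of Cryba1, Crybb2 and Crygs in the ONH were at most 5.28, 4.20 and 5.00. The 4 eyes belonged to several stages. The genes parted in others, as in severe replicate 6, where Crygs was at 5.70 with Cryba1 at 3.35 and Crybb2 at 3.71, and in preglaucoma replicate 3, where Cryba1 was at 6.20 with Crygs at 4.78.

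**Figure D3:**
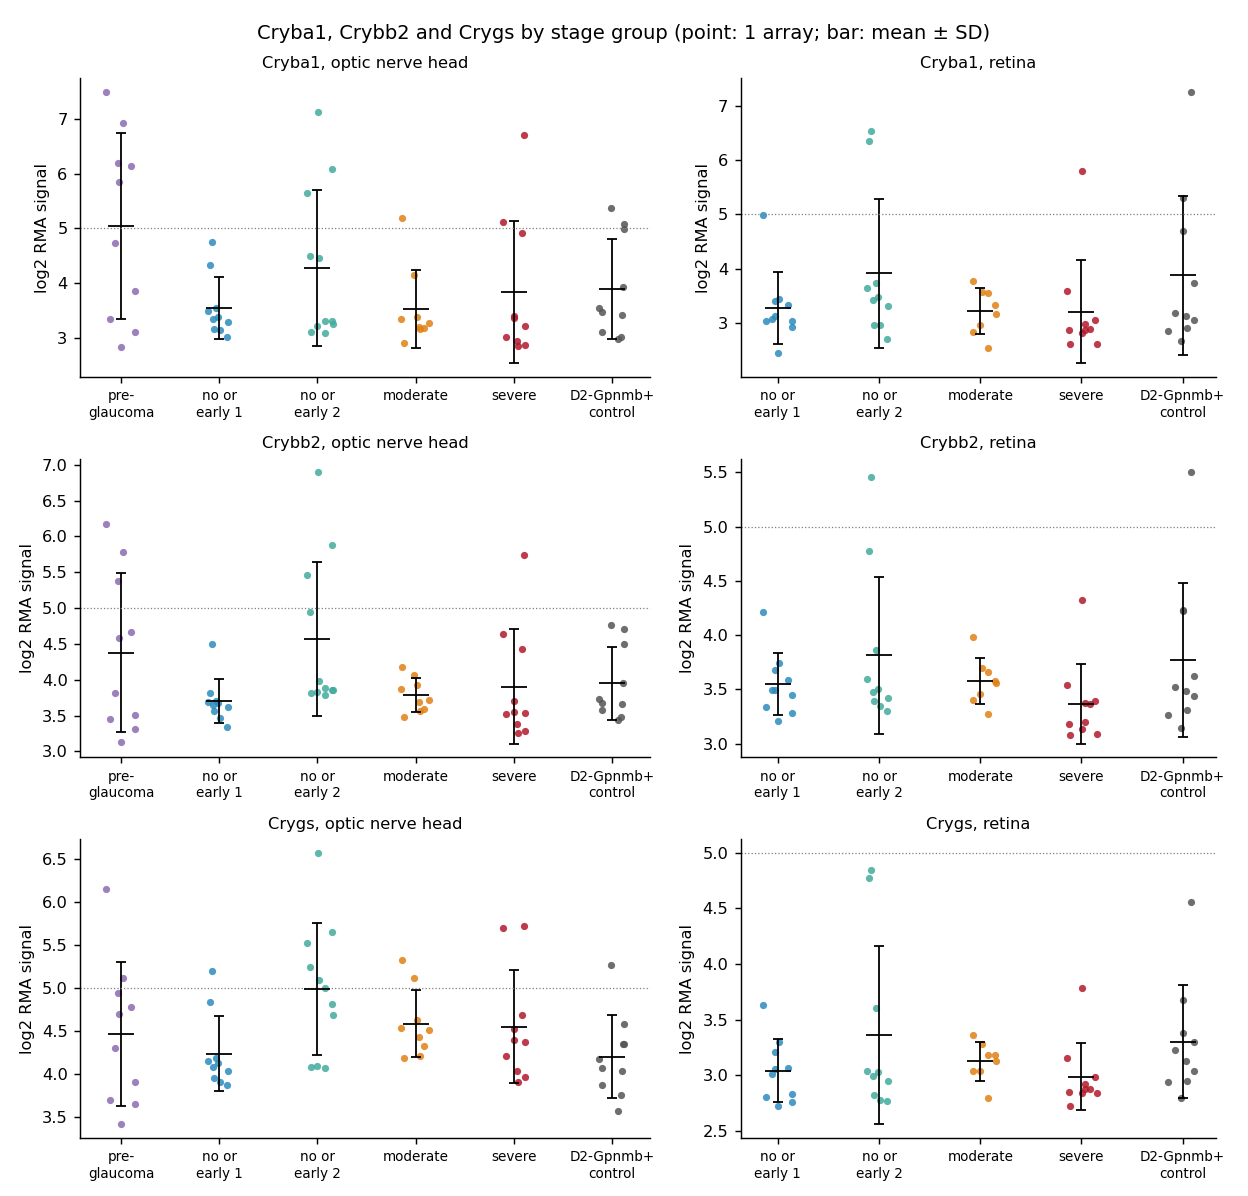
Log2 signal of Cryba1, Crybb2 and Crygs by stage group in the optic nerve head (left column) and the retina (right column). Each point is 1 array, the bar is the mean ± SD and the dotted line marks log2 5. Most arrays lie under 5, and single eyes of several groups stand above it.

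Among Cryaa, Cryba1, Cryba2, Crybb2 and Crygs, the 10 pairwise correlations of group-centred values had a median r of 0.68 (0.55 to 0.90) over 60 ONH arrays and 0.85 (0.62 to 0.90) over 48 retinas. The pair Cryba1 and Crybb2 stood at 0.90 in both tissues. These 5 were grouped after their values were seen, so the correlations are descriptions. Over the 8 pairs with Cryab the median r was 0.15 in the ONH (0.05 to 0.51) and 0.04 in the retina (-0.31 to 0.16). Eyes of 1 mouse did not always share the level. In severe replicate 3 Cryba1 was at 6.70 in the ONH, while the moderate other eye of that mouse was at 3.38. Both eyes were high in the preglaucoma mouse of replicates 5 and 6 (5.84 and 6.93) and in that of replicates 3 and 4 (6.20 and 6.14).

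The retina of an eye followed its ONH. Over 41 mice with both tissues, group-centred and with eyes averaged, Crybb2 in the retina correlated with Crybb2 in the ONH at Pearson r = 0.79 (permutation p = 1e-05, the smallest 100000 resamples can give, adjusted p = 0.000135) and Spearman rho = 0.69 (permutation p = 1e-05, adjusted p = 0.00027). For Cryba1 the values were r = 0.73 (permutation p = 1e-05, adjusted p = 0.000135) and rho = 0.60 (permutation p = 3e-05, adjusted p = 0.000405). Without the 2 mice farthest from the median in the ONH, r was 0.74 for Crybb2 and 0.62 for Cryba1. Cryaa (r = 0.51, rho = 0.44), Crygs (0.49 and 0.45) and Cryba2 (0.43 and 0.35) also passed on r, with permutation adjusted p of 0.0172, 0.00702 and 0.0172; on rho Cryaa and Crygs passed (adjusted p = 0.0157 and 0.0140) and Cryba2 did not (0.0766). Without the 2 farthest mice r was 0.48, 0.40 and 0.44. Cryab, Cryba4, Crybb1 and Crybb3 had r of 0.02, 0.21, 0.14 and 0.0039, with adjusted permutation p of 0.950, 0.311, 0.513 and 0.982. In all, 27 such relations were computed and adjusted together.

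**Figure D4:**
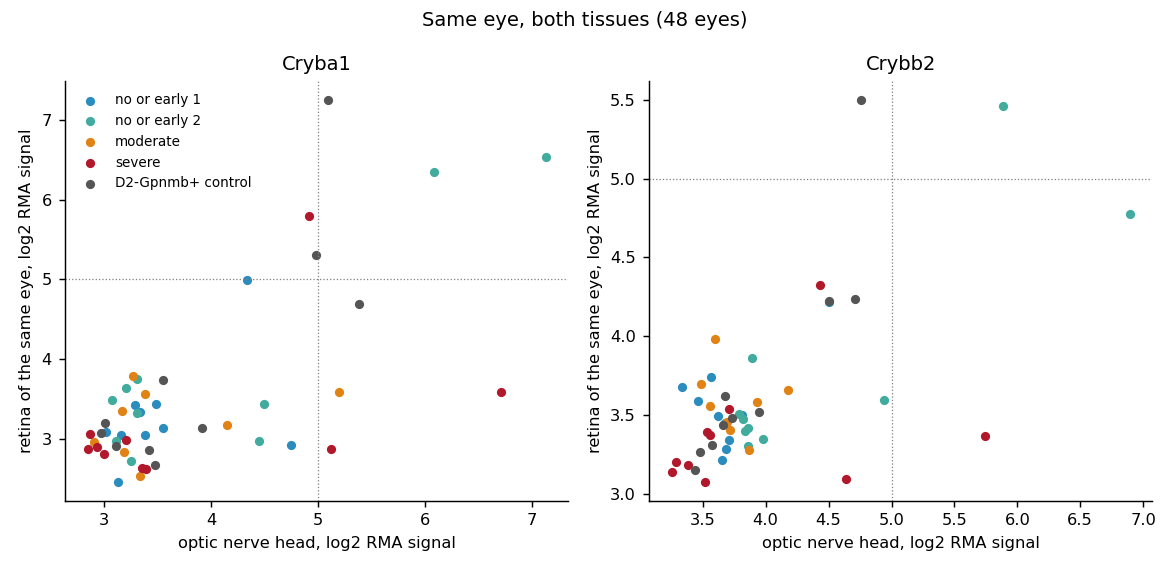
Log2 signal of Cryba1 (left) and Crybb2 (right) in the retina against the optic nerve head of the same eye, for 48 eyes coloured by stage group. Dotted lines mark log2 5. Most eyes are low in both tissues, and no or early 2 replicates 7 and 8 are high in both.

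Of the 48 eyes, Cryba1 reached 5 in the ONH of 7, the retina of 5 and both tissues of 3. The 3 were no or early 2 replicates 7 (7.12 in the ONH and 6.54 in the retina) and 8 (6.09 and 6.35) and control replicate 8 (5.09 and 7.25). Severe replicate 3 was high in the ONH alone (6.70, against 3.59 in its retina). Severe replicate 2 stood at 4.91 in the ONH and 5.79 in the retina.

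Markers of lens fibres other than crystallins stayed low. Of 12 on the list 8 were on the array, and 0 were tested in either tissue. Only Mip, the water channel of lens fibre membranes, and Bfsp2, a beaded filament protein, reached a log2 signal of 5, each on 1 severe ONH array (5.65 and 5.06). The mean of the 8 ran from 3.44 to 3.67 in preglaucoma, 3.27 to 3.59 in no or early, 3.29 to 3.57 in moderate and 3.46 to 4.06 in severe ONHs, against 3.31 to 3.59 in controls. In the retina it ran from 3.26 to 3.80 over all groups.

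Across 50 mice, that mean correlated in the ONH with Cryba2 (r = 0.52, rho = 0.49, adjusted permutation p = 0.00054 and 0.0023), Cryaa (0.43 and 0.52, adjusted p = 0.00702 and 0.00153) and Crybb2 (0.41 and 0.43, adjusted p = 0.0138 and 0.0103), and r without the 2 farthest mice was 0.46, 0.43 and 0.37. Cryba1 (r = 0.33, rho = 0.29, adjusted permutation p = 0.0564 and 0.110) and Crygs (0.27 and 0.29, adjusted p = 0.160 and 0.110) did not pass. In the retina, over 41 mice, no member passed, the highest r being 0.25 for Cryaa (rho = 0.21, adjusted permutation p = 0.259 and 0.321). All such values lie mostly under log2 5, and the part of lens fibre RNA in the crystallin signal was not tested.

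Among 14 other crystallin genes 12 were on the array, with 6 tested in the ONH and 5 in retinas. Crym rose against controls in moderate (1.60 ± 0.24, adjusted p = 1.30e-06) and severe (0.67 ± 0.23, adjusted p = 0.0272) ONHs and in moderate (1.35 ± 0.20, adjusted p = 2.57e-06) and severe (0.52 ± 0.19, adjusted p = 0.0292) retinas, by limma. Crybg1, a non-lens member of the beta and gamma superfamily, rose in moderate (0.68 ± 0.19) and severe (0.57 ± 0.18) ONHs. Cryz, a quinone reductase named for its use as a lens protein in some mammals, rose in severe retinas (0.19 ± 0.06). None of the tested ones fell against controls.

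Of the other 8 small heat shock proteins, 4 were tested in the ONH and 3 in the retina. Hspb1 (0.87 ± 0.26) and Hspb8 (0.46 ± 0.17) rose in severe ONHs against controls, and the median of the 4 was 0.44, against 0.00 over all genes. In retinas Hspb8 rose in moderate eyes (0.40 ± 0.11) and fell in severe ones (-0.78 ± 0.10), while Hspb6 (0.18 ± 0.06) and Hspb11 (0.19 ± 0.07) rose in severe ones. Of 12 tested heat shock chaperones, Bag3 rose in moderate retinas (0.69 ± 0.14), and Hspa8, Hsph1 and Ahsa1 fell in severe retinas (-0.14 ± 0.04, -0.27 ± 0.06 and -0.29 ± 0.06).

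Of 6 lens transcription factors tested in the ONH, 4 fell in moderate eyes against controls, Sox1 (-1.39 ± 0.28), Pax6 (-0.63 ± 0.23), Prox1 (-0.47 ± 0.12) and Six3 (-0.43 ± 0.16), and 3 of them fell in severe eyes. Of all 12100 genes tested, 1440 fell in moderate and 1638 in severe ONHs. Retinal cells also make lens transcription factors. In severe retinas Sox2 (0.36 ± 0.07) and Maf (0.17 ± 0.05), the large Maf factor of lens fibres, rose and Six3 fell (-0.63 ± 0.06). Sox2 also rose in moderate retinas (0.44 ± 0.07).

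The genes most like the family were sought among tested non-members, by the correlation of group-centred values with the mean of the 9 members. In the ONH they were Slc27a4, Adamts10, Ltbp2, Zkscan5, Kctd14, Sema3f, Brf1 and Rapgef3, with r between 0.51 and 0.55 over 60 arrays. In the retina they were Stom, Phactr4, Adam17, Abcc10, Haus6, Lrrc40, Fancg and Zdhhc16, with r between 0.46 and 0.59 over 48 arrays. No gene appeared in both sets of 8. These genes were picked as the highest of all tested non-members by the same r that is given. The r that chance would give over so many genes was not computed, so the names are descriptions. Crybb2 had r of 0.91 in the ONH and 0.92 in the retina with the mean of the other members, a mean that leaves Crybb2 out.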

How the data were processed

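RNA of 108 tissue samples from 60 eyes of 50 mice was labelled after amplification and hybridized to Affymetrix arrays. The deposited values are log2 signals made by RMA in the affy package after scanning with GCOS, per the submitters' processing notes, which give no versions. They ran from 1.81 to 14.31 over 45101 probe sets. Whether both tissues were normalized together is not given in the sources used here, so tissues were compared only through effects. RMA signals near the bottom of the scale compress real differences. The number of arrays limits the precision, since the values carry no depth.

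Of the probe sets, 34958 had 1 gene, and the one of the highest mean in the tissue stood for each gene. Each tissue was fitted with limma 3.58.1 in R 4.3.3 (lmFit, eBayes) in a model of all its groups, where eyes of 1 mouse formed a random block (within-mouse correlation 0.0774 in the ONH, 0.0366 in the retina). Sets 1 and 2 had equal weight in the no or early mean. For ONH minus retina, differences of the same eye were fitted. Tests were two-sided, Benjamini-Hochberg adjustment ran over all genes tested in a comparison, and a gene was called at an adjusted p under 0.05. On simulated data for severe against control, the fit recovered 95% of changes of size 1 (log2) in the ONH and 98% in the retina. Changes below size 1 were not simulated, and every called difference of a member was smaller than that. The changed genes were drawn at random, so these rates do not describe variable members such as Cryba1.

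The genes named are all 9 members, up to 4 called genes of each other list, the 8 most alike genes of a tissue and Gpnmb; genes chosen otherwise are marked as such. The members and lists were chosen with earlier results of these data known. Correlations used Python 3.11.15 with 100000 resamples. Alternatives were array weights, no filter, the mean of all probe sets, no mouse block, a replicate block, only the groups compared, mouse number or eye side as a factor, another quantile normalization, a robust prior and leaving out each mouse. Left out were 2 deposited subsets of the same values for clustering, which hold no member.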

Additional observations from a re-analysis of the deposited data

Results flagged for a closer look

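In groups of 8 to 10 arrays, a single array stood apart from the others for several members, its gap to the nearest exceeding Dixon's 95% limit for the group size. Chance flags about 1 in 20 groups. In the retina of control replicate 8, Cryaa stood at 5.23, Cryba2 at 4.89, Crybb2 at 5.50 and Crygs at 4.55, all highest in their group. In the retina of severe replicate 2, Cryaa stood at 4.05, Cryba1 at 5.79, Crybb2 at 4.33 and Crygs at 3.78, again highest. In no or early 1 replicate 3, Cryaa at 3.97, Cryba2 at 5.27 and Crybb2 at 4.50 were highest in the ONH, and Cryba1 at 4.99 and Crybb2 at 4.22 were highest in the retina. Cryab was highest in the retina of control replicate 5, at 10.32. Crybb1 was lowest in the ONH of no or early 1 replicate 9, at 4.02, and Cryba4 was lowest in the retina of moderate replicate 7, at 2.82.

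The moderate minus control difference in Cryab differed between tissues, by -0.56 on the log2 scale for ONH minus retina (adjusted p = 0.00651 by limma). As given above, the call was lost with only the groups compared and with mouse number as a factor. It was also lost within the controls' range of mouse numbers.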

How the results depend on the processing

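Counts of members called were recomputed under each alternative, along with the difference of each tested member. Without the filter all 9 members were tested in each tissue, instead of 4 in the ONH and 2 in the retina. The counts without the filter therefore cannot be set directly against the main ones. The share of all genes called under each alternative is not given here. The retina calls of Cryab and Crybb1 passed whichever mouse was left out. In the ONH, no or early against preglaucoma called 4 members without the filter, 2 with array weights, and 1 with the mean of all probe sets, the replicate block or eye side as a factor, and 0 to 1 with a mouse left out. Without the filter, preglaucoma against control called 2 members, severe against control 1, severe against no or early 2 and severe against moderate 1 in the ONH; in the retina, severe against no or early called 3 and severe against moderate 4. Severe against control in the retina called 2 with array weights, the mean of all probe sets, no mouse block or only the groups compared, and 1 to 2 with a mouse left out. With only the groups compared, severe against moderate retinas called 1 (Cryab adjusted p = 0.0537) and ONH minus retina in moderate eyes called 0, as it also did with mouse number as a factor. Within the controls' range of mouse numbers, added after seeing the data, the count was 0 for severe against no or early in the ONH, for moderate and severe against control, moderate and severe against no or early and severe against moderate in the retina, and for ONH minus retina in moderate eyes; that setting keeps 9 DBA/2J and 10 control retinas. Without the low-Xist mouse, also added later, every count of calls was the same.

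Uncalled ONH differences near 0 changed sign. Within the controls' range of mouse numbers, Cryab turned to 0.0575 in no or early against control, -0.0200 in moderate against no or early and, a called result, -0.0189 in severe against no or early. Cryba1 turned to 1.08 in severe against control and 1.02 in severe against no or early, Cryba2 to 0.12 in severe against control and 0.23 in severe against moderate, and Crybb1 to 0.19 in moderate against no or early retinas. For Cryba1 in no or early against control, array weights gave -0.11, the replicate block -0.0316 and another quantile normalization -0.0040. Mouse number as a factor gave Cryba2 0.0219 in moderate against control, Cryba1 0.12 in severe against control, Crygs 0.0324 in severe against moderate and Cryab 0.0086 for ONH minus retina in severe eyes. The mean of all probe sets gave Cryab 0.0111 in no or early against preglaucoma. Crygs in moderate against no or early was 0.22 with array weights and 0.0314 with the replicate block. Cryba1 in severe against no or early was 0.0022 with the replicate block. Crygs in severe against no or early was 9.7e-05 after another quantile normalization and 0.10 without the low-Xist mouse; in severe against moderate it was 0.0598 with only the groups compared, 0.0290 after another quantile normalization and 0.13 without the low-Xist mouse. The cause was not tested.

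With a mouse left out, ranges that crossed 0 were, in the ONH, -0.15 to 0.18 for Cryba1 in no or early against control, -0.0244 to 0.0430 for Cryab in moderate against control and -0.40 to 0.10 for Cryba1 in severe against control. They were -0.0676 to 0.0045 for Cryab and -0.0812 to 0.34 for Crygs in no or early against preglaucoma, and -0.13 to 0.0479 for Crygs in moderate against no or early. In severe against no or early they were -0.40 to 0.0662 for Cryba1 and -0.18 to 0.10 for Crygs, and in severe against moderate -0.0403 to 0.53 and -0.16 to 0.13. In the retina the range was -0.0034 to 0.11 for Crybb1 in moderate against control.

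Replicate numbers were not taken to pair the arrays in the main fit, by a rule that every pair of the same number correlate above 0.1. Arrays that share a batch only in part would also fail that rule, so it cannot show the numbers to be unrelated. In the ONH, arrays of the same number were more alike than others. Over arrays of different groups and mice, the correlation of group-centred values had a median of 0.11 with the same number and -0.0175 with different numbers in the ONH (75 of 144 pairs over 0.1), and of -0.0019 and 0.0016 in the retina (26 of 91). In the ONH 17 of 59 arrays correlated best with their own number, and in the retina 3 of 48. The replicate block changed no other call of a member than that of Cryba1 in no or early against preglaucoma ONHs, where it gave -1.24. Low signals, under log2 5 for 8 of 9 members on most arrays, limit what could be tested.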

Other observations

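Pigment cell genes, which are not crystallins, moved in the ONH beside the members. All 8 tested melanocyte and pigment genes fell in no or early, moderate and severe ONHs against controls, with median differences of -2.10, -2.11 and -2.43, and 1 of 8 fell in preglaucoma ONHs. Of all 12100 genes tested, 81, 1440 and 1638 fell in no or early, moderate and severe ONHs, and 468 in preglaucoma ones. In the retina 4 pigment genes were tested, of which 1 fell in moderate and 0 in severe eyes. Of 5 cornea markers 1 was tested in the ONH and 0 in the retina. Of 13 skeletal muscle markers 2 were tested in the ONH and 0 in the retina.

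Cryba4, always between 2.61 and 3.38 in the ONH, averaged 2.80 ± 0.13 in preglaucoma and 2.82 ± 0.13 in severe ONHs, against 3.02 ± 0.09 in controls (SD, n = 10 each). Crybb1 averaged 4.21 ± 0.31 in preglaucoma ONHs, against 4.69 ± 0.21 in controls. Crybb3 averaged 3.55 ± 0.11 in preglaucoma ONHs, against 3.82 ± 0.16 in controls. All of these lie below the level used for testing.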
